A study of Mus musculus with 18 samples.

Results

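The insulin-like growth factor (IGF) axis was described here through 10 genes of the 55469 in the deposited tables: the ligands Igf1 and Igf2, the receptor Igf1r, the adapter Irs1 and the binding proteins Igfbp2, Igfbp3, Igfbp4, Igfbp5, Igfbp6 and Igfbp7. The members were rows whose Ensembl gene identifier carries 1 of these symbols, and all 10 were found. The set was selected on the normalized counts of Igf1 and Igfbp4, which were high in A537T-TRAMP prostate at 30 weeks, so values of that contrast are given as a description and carry no test.

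IGF-1 and IGF-2 are secreted peptides that bind the IGF-1 receptor, a tyrosine kinase of the cell surface. The activated receptor phosphorylates insulin receptor substrates such as IRS1, which pass the signal to PI3-kinase, AKT and mTOR and favour growth and survival. The IGF binding proteins hold the ligands outside the cell and lengthen or limit their action, and IGFBP7 binds the ligands only weakly. In the prostate, stromal cells are a known source of IGF-1 and epithelial cells carry the receptor.

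In 18 male mice, 3 per group, total RNA of the prostate's ventral and lateral lobes was sequenced. All mice carried the TRAMP transgene in the heterozygous state, in which the probasin promoter drives SV40 T antigens, large and small, in prostate epithelium, on a background labelled C56NL/6N. WT-TRAMP mice had wild-type Elac2, the gene of an RNase Z that cuts the 3′ ends of precursor tRNAs. KO-TRAMP mice were homozygous for a floxed exon 8 deleted by Pb-Cre, which acts in prostate epithelium, and the A537T-TRAMP mice were homozygous for an alanine to threonine change in ELAC2 in the whole body. Each line was taken at 10 and at 30 weeks of age.

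The files hold 4 tables, each with 3 WT-TRAMP libraries and 3 mutant libraries, and each table was scaled separately. The WT-TRAMP libraries of an age stand in both tables of that age, so the KO-TRAMP and A537T-TRAMP comparisons at an age share their controls. Libraries held between 9380174 and 14830104 recovered reads. Elac2 itself had 251 to 320 normalized counts in WT-TRAMP and 249 to 267 in KO-TRAMP at 30 weeks, overlapping groups. A count over the whole gene does not read the loss of exon 8 in the epithelium alone. Exon 8 was not counted by itself, so these values do not show the deletion in the libraries taken as KO-TRAMP. At 30 weeks the summed normalized counts of 10 neuroendocrine markers were 337, 20628 and 12908 in KO-TRAMP libraries 16, 17 and 18, against 3933, 355 and 1956 in WT-TRAMP libraries 10, 11 and 12. Library 16 thus lay just under the lowest control, and libraries 17 and 18 above each control. The members' tests in KO-TRAMP at 30 weeks are also given without library 16, which compares 2 libraries high in neuroendocrine markers with WT-TRAMP. This library was singled out after the values were seen. In that fit 18.1% of all genes had an adjusted p under 0.05 in limma, beside 0.213% with all libraries. Leaving out library 10, 11, 12, 17 or 18 instead gave 0 members under 0.05. The sum of 10 luminal epithelial markers ran from 27348 to 333160 normalized counts over the libraries. The sum of 8 markers of the seminal vesicle, a neighbouring gland, exceeded the luminal sum in libraries 5, 9, 10, 12, 13 and 15, and by most in A537T-TRAMP library 5 at 10 weeks, with 1156555 against 27348.

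**Figure D1:**
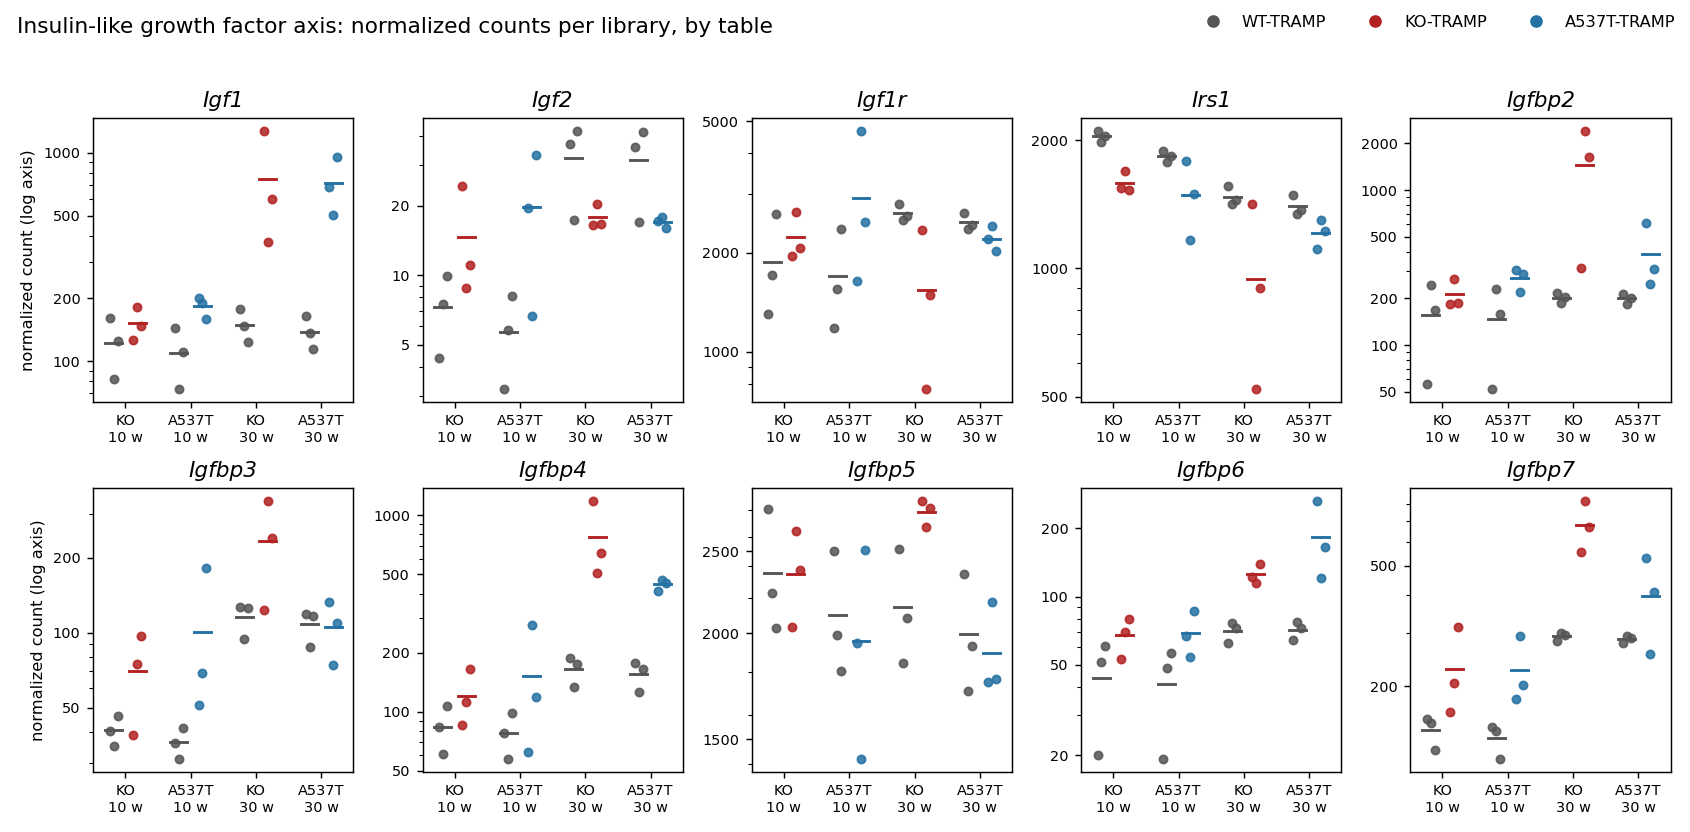
Normalized counts of the 10 genes (vertical log axis) in each of the 4 tables (horizontal axis), with each point a library, grey for WT-TRAMP, red for KO-TRAMP and blue for A537T-TRAMP, and bars at group means (n = 3). Igf1 and Igfbp4 lie above WT-TRAMP in the 3 mutant libraries of each line at 30 weeks, while Igf1r and Irs1 are lowest in KO-TRAMP at 30 weeks.

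Per length, Igfbp5, Igfbp7, Irs1 and Igf1r were the most abundant members in WT-TRAMP and the ligands the least. In WT-TRAMP at 30 weeks, normalized counts per kb of exon were 358 ± 56.6 (SD, n = 3) for Igfbp5, 242 ± 7.53 for Igfbp7, 161 ± 8.24 for Irs1, 157 ± 8.90 for Igf1r, 110.0 ± 8.11 for Igfbp2, 63.7 ± 6.56 for Igfbp6, 37.3 ± 6.34 for Igfbp4, 36.8 ± 5.88 for Igfbp3, 15.1 ± 2.72 for Igf1 and 5.61 ± 2.29 for Igf2. Neighbours in this order whose libraries overlapped were Irs1 and Igf1r, and Igfbp4 and Igfbp3. In WT-TRAMP at 10 weeks Igfbp5 also came first (392 ± 67.1) and Igf2 last (1.27 ± 0.485), and every pair of neighbours from Igfbp7 down to Igf1 overlapped. The order in KO-TRAMP at 30 weeks was led by Igfbp2 (784 ± 572), Igfbp7 (563 ± 108) and Igfbp5 (463 ± 17.1), whose libraries overlapped between neighbours.

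**Figure D2:**
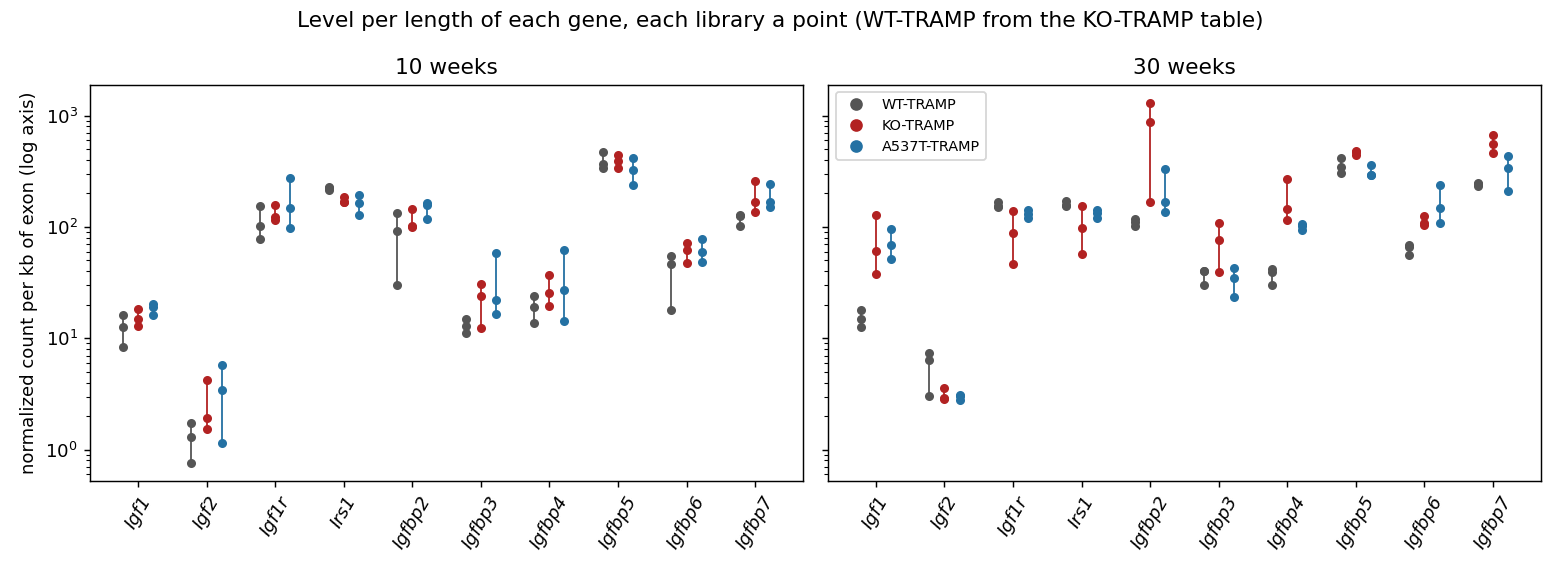
Normalized count per kb of exon (vertical log axis) for each gene (horizontal axis) at 10 and 30 weeks, each point a library and each line the range of a group (n = 3). Igfbp5 is the highest and Igf2 the lowest WT-TRAMP gene at both ages, and Igfbp2 spans 169 to 1301 per kb in KO-TRAMP at 30 weeks.

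Igf1 (ENSMUSG00000020053.18, chr10:87858265-87937042, plus strand, GRCm38) encodes the main circulating ligand of the axis, which is also made locally. Its RefSeq promoter window, 250 bases before to 50 after the annotated start, is shown because the ligand had the largest difference of all members in A537T-TRAMP at 30 weeks. It lies at chr10:87860861-87861160, inside the GENCODE gene interval, and its capitals mark the only match found, a CCAAT box on the minus strand, read here as ATTGG.
Igf1: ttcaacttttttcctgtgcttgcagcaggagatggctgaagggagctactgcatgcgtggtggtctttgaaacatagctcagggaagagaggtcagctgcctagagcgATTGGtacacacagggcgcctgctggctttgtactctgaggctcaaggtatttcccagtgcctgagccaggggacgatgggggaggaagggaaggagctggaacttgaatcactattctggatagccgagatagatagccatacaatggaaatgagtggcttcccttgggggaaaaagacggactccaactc

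Igf1 was higher in both mutant lines at 30 weeks. In the KO-TRAMP table the WT-TRAMP libraries had 178, 148 and 124 normalized counts at 30 weeks, and KO-TRAMP libraries 16, 17 and 18 had 1273, 375 and 599. The groups did not overlap, and the mutant spread (SD 467, n = 3) was wide, with library 16 more than 3 times library 17. The log2 difference was 2.14 ± 0.44 (SE), with an adjusted p of 0.21 in limma over 16900 genes, so it did not pass the threshold of 0.05. Without library 16 it was 1.67 with an adjusted p of 0.0197, and over all alternatives the adjusted p ran from 0.000135 to 0.734.

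In the A537T-TRAMP table the same controls had 164, 136 and 114 normalized counts of Igf1, and A537T-TRAMP libraries 13, 14 and 15 had 682, 506 and 955. The log2 difference there was 2.33 ± 0.25 (SE), a ratio of means of 5.17. At 10 weeks the differences were smaller. WT-TRAMP had 162, 82.5 and 124 and KO-TRAMP 127, 182 and 147, overlapping groups with a log2 difference of 0.34 ± 0.26 and an adjusted p of 0.85. A537T-TRAMP at 10 weeks had 201, 191 and 159 against 144, 73.7 and 111, groups that did not overlap, with a log2 difference of 0.79 ± 0.27 and an adjusted p of 0.6 in limma. The KO-TRAMP effect on Igf1 at 30 weeks exceeded that at 10 weeks by 1.80 ± 0.55 on the log2 scale, which did not pass (adjusted p = 0.271, limma).

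Igf2 (ENSMUSG00000048583.16, chr7:142650766-142666816, minus strand) encodes the fetal growth ligand, expressed from the paternal allele. It was the least abundant member, with 3.21 to 42.2 normalized counts over all libraries and tables. Its reads share exons with a same-strand readthrough gene in the annotation, Gm49394, so its counts are uncertain. At 10 weeks it had 4.37, 7.50 and 9.91 in WT-TRAMP and 24.3, 8.81 and 11.02 in KO-TRAMP, and it met the minimum mean of 10 normalized counts only through the mutant libraries. At 30 weeks it had 36.9, 17.3 and 42.2 in WT-TRAMP and 16.5, 20.4 and 16.7 in KO-TRAMP, overlapping groups. That difference of -0.73 did not pass (adjusted p = 0.448, limma), nor did the -0.67 without library 16 (adjusted p = 0.34, range over all alternatives 0.00414 to 0.753). A537T-TRAMP at 10 weeks had 19.5, 6.63 and 33.3 against 3.21, 5.76 and 8.08, where Igf2 again met the minimum mean only through the mutant libraries, so its 10-week differences are a description.

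Igf1r (ENSMUSG00000005533.10, chr7:67952827-68233668, plus strand) encodes the receptor through which both ligands signal. At 30 weeks it had 2802, 2514 and 2587 normalized counts in WT-TRAMP and 2344, 773 and 1488 in KO-TRAMP. The groups did not overlap, with library 16 close to the controls and library 17 far below them. The log2 difference of -0.92 ± 0.38 (SE) had an adjusted p of 0.37 in limma, and without library 16 it was -1.29 with an adjusted p of 0.0342 (range over all alternatives 0.00083 to 0.749). A537T-TRAMP at 30 weeks overlapped the controls, with 2193, 2398 and 2018 against 2638, 2349 and 2417. At 10 weeks A537T-TRAMP library 5 had 4663 normalized counts of Igf1r against 1637 and 2474 in libraries 4 and 6, and both mutant lines overlapped WT-TRAMP. The differences were 0.29 ± 0.24 for KO-TRAMP and 0.71 ± 0.40 for A537T-TRAMP, with adjusted p of 0.859 and 0.606 in limma.

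Irs1 (ENSMUSG00000055980.2, chr1:82233101-82291416, minus strand) encodes the adapter that links the receptor to PI3-kinase. It was the member whose log2 difference was negative in each of the 4 comparisons. At 10 weeks WT-TRAMP had 2098, 1976 and 2048 normalized counts and KO-TRAMP 1544, 1693 and 1523, groups that did not overlap. The log2 difference was -0.36 ± 0.09 (SE) with an adjusted p of 0.659 in limma. A537T-TRAMP overlapped its controls at 10 weeks, with a difference of -0.32 ± 0.17 (adjusted p = 0.6, limma). At 30 weeks the KO-TRAMP libraries had 1417, 522 and 898 against 1559, 1415 and 1449, an overlap through library 16. That difference was -0.75 ± 0.35 (adjusted p = 0.388, limma). Without library 16, where 18.1% of all genes passed, it was -1.10 with an adjusted p of 0.0342 (range over all alternatives 0.000919 to 0.749). A537T-TRAMP at 30 weeks had 1109, 1295 and 1225 against 1488, 1340 and 1373, groups that did not overlap, and a log2 difference of -0.21 ± 0.10.

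Igfbp4 (ENSMUSG00000017493.12, chr11:99041244-99054392, plus strand) encodes a binding protein known to restrain IGF action until the protease PAPP-A cuts it. Its promoter window at chr11:99040994-99041293 is shown as that of the other member named by the selection, with a TATA box (TATAAA), the only match found in it, in capitals.
Igfbp4: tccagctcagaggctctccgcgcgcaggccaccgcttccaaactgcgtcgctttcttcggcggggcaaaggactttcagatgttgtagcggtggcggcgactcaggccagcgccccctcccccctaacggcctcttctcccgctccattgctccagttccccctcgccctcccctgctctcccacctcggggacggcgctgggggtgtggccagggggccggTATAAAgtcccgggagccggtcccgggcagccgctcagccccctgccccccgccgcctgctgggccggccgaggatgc

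At 30 weeks WT-TRAMP had 187, 133 and 174 normalized counts of Igfbp4 and KO-TRAMP libraries 16, 17 and 18 had 1180, 512 and 644. The 3 KO-TRAMP libraries stood in the same order as for Igf1, with library 16 highest and library 17 lowest. The log2 difference was 2.15 ± 0.33 (SE), with an adjusted p of 0.0946 in limma, and without library 16 it was 1.81 with an adjusted p of 0.00983 (range over all alternatives 7.36e-07 to 0.465). A537T-TRAMP at 30 weeks had 411, 470 and 455 against 177, 126 and 164, a log2 difference of 1.52 ± 0.16, and here the 3 mutant libraries lay close together (SD 30.4, n = 3). At 10 weeks both lines overlapped WT-TRAMP, with log2 differences of 0.50 ± 0.29 for KO-TRAMP (adjusted p = 0.799) and 0.73 ± 0.51 for A537T-TRAMP (adjusted p = 0.639, limma). The KO-TRAMP effect was larger at 30 than at 10 weeks by 1.65 ± 0.47, which did not pass (adjusted p = 0.258, limma).

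Igfbp2 (ENSMUSG00000039323.18, chr1:72824503-72852474, plus strand) encodes a binding protein that also binds integrins, and it lies tail to tail with Igfbp5 at a distance of 5.46 kb. At 30 weeks WT-TRAMP had 217, 187 and 203 normalized counts and KO-TRAMP libraries 16, 17 and 18 had 313, 2403 and 1626. The order of the KO-TRAMP libraries was the reverse of that for Igf1 and Igfbp4. The log2 difference of 2.40 ± 0.73 (SE) had an adjusted p of 0.327 in limma. Without library 16 it was 3.28 with an adjusted p of 0.00412 (range over all alternatives 0.000135 to 0.749), and the value is thus more than 1.5 times larger without that library on the linear scale. A537T-TRAMP at 30 weeks had 611, 249 and 309 against 215, 185 and 201, a log2 difference of 0.85 ± 0.31. At 10 weeks both lines overlapped WT-TRAMP, whose library 1 was low, with 185, 267 and 187 in KO-TRAMP against 56.0, 245 and 170 and 305, 220 and 289 in A537T-TRAMP against 52.2, 229 and 158. The differences were 0.66 ± 0.48 and 1.11 ± 0.50, with adjusted p of 0.845 and 0.6 in limma.

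Igfbp7 (ENSMUSG00000036256.13, chr5:77349240-77408041, minus strand) encodes a secreted protein found around vessels and in stroma. At 30 weeks KO-TRAMP had 556, 816 and 670 normalized counts against 282, 299 and 295 in WT-TRAMP, a log2 difference of 1.20 ± 0.16 (SE). Its adjusted p of 0.0714 in limma was the smallest of the members and did not pass, while without library 16 it was 0.00801 (range over all alternatives 3.96e-07 to 0.444). Igfbp7 was also above WT-TRAMP without overlap at 10 weeks, with 165, 205 and 313 in KO-TRAMP against 156, 151 and 123, and 181, 294 and 202 in A537T-TRAMP against 147, 143 and 115. Those log2 differences were 0.62 ± 0.24 and 0.71 ± 0.23, with adjusted p of 0.734 and 0.6 in limma. A537T-TRAMP at 30 weeks overlapped the controls, with 529, 256 and 409 against 277, 292 and 288.

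Igfbp3, Igfbp6 and Igfbp5 complete the binding proteins. Igfbp3 (ENSMUSG00000020427.11, chr11:7206086-7213923, minus strand), the main carrier of IGF-1 in blood, had 123, 337 and 239 normalized counts in KO-TRAMP at 30 weeks against 126, 94.0 and 125, overlapping through library 16, and a log2 difference of 0.91 ± 0.38 (adjusted p = 0.371, limma). Without library 16 the Igfbp3 difference was 1.31 with an adjusted p of 0.0253 (range over all alternatives 0.000584 to 0.749). In A537T-TRAMP at 10 weeks it had 51.3, 68.5 and 181 against 36.2, 31.1 and 41.4, groups that did not overlap, with a difference of 1.24 ± 0.46 (adjusted p = 0.6, limma). Igfbp6 (ENSMUSG00000023046.6, chr15:102144362-102149511, plus strand), which binds IGF-2 by preference, had 121, 115 and 139 in KO-TRAMP at 30 weeks against 62.7, 76.8 and 73.0, a difference of 0.81 ± 0.18 (adjusted p = 0.248, limma). Without library 16 it was 0.83 with an adjusted p of 0.0496 (range over all alternatives 0.000295 to 0.749). In A537T-TRAMP at 30 weeks it had 263, 120 and 165 against 64.3, 77.1 and 72.5, a difference of 1.28 ± 0.28. Its groups overlapped at 10 weeks, with differences of 0.73 ± 0.41 for KO-TRAMP and 0.83 ± 0.43 for A537T-TRAMP and adjusted p of 0.793 and 0.6 in limma. Igfbp5 (ENSMUSG00000026185.8, chr1:72857932-72874884, minus strand), a binding protein that attaches to the extracellular matrix, was the most abundant per length in WT-TRAMP and differed least, with differences from -0.12 to 0.38 over the 4 comparisons and non-overlapping groups only in KO-TRAMP at 30 weeks (adjusted p = 0.351, limma, and 0.132 without library 16, with a range over all alternatives of 0.00107 to 0.749).

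Summed per kb of exon, the 6 binding proteins had 786 to 909 normalized counts in WT-TRAMP at 30 weeks and 1522, 2747 and 2251 in KO-TRAMP libraries 16, 17 and 18. The share of Igfbp5 in that sum was 39.1% to 46.1% in WT-TRAMP and 31.3%, 16.2% and 20.8% in the KO-TRAMP libraries. The pool of binding protein transcripts was thus larger and less dominated by Igfbp5 in each KO-TRAMP library. In A537T-TRAMP libraries 13, 14 and 15 the sum was 1432, 948 and 1086 against 752 to 872 in WT-TRAMP.

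Over the 10 members, 0 passed an adjusted p of 0.05 in limma in KO-TRAMP at 10 weeks, A537T-TRAMP at 10 weeks and KO-TRAMP at 30 weeks, where 0.0129%, 0.00648% and 0.213% of all genes tested passed. At an unadjusted p under 0.05 there were 2, 3 and 6 members, beside 6.64%, 7.89% and 13.5% of all genes. Groups did not overlap for 1 higher and 1 lower member in KO-TRAMP at 10 weeks, beside 5.77% and 6.26% of all genes, and for 3 higher and 0 lower members in A537T-TRAMP at 10 weeks, beside 6.92% and 6.53%. At 30 weeks 6 members were higher and 1 was lower without overlap in KO-TRAMP, beside 10.8% and 9.48% of all genes. In A537T-TRAMP at 30 weeks, the contrast that chose the members, 4 were higher and 1 was lower, beside 7.36% and 6.03%.

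The median log2 difference of the members at 10 weeks was 0.56 for KO-TRAMP and 0.76 for A537T-TRAMP. The medians at 30 weeks were 0.86 for KO-TRAMP and 0.18 for A537T-TRAMP, where the medians of all genes tested were between -0.01 and 0.01. The number of members with a positive difference was 9, 8, 7 and 5 in that order. These counts and medians hold Igf2, which at 10 weeks met the minimum mean only through mutant libraries. In the test of the KO-TRAMP effect at 30 weeks against that at 10 weeks, 0 of 10 members passed in limma, beside 0% of all 16431 genes. An unadjusted p under 0.05 was found for 4 members, beside 13.1% of all genes. Those 4 hold Igf2, whose WT-TRAMP mean was 7.26 at 10 weeks and 32.1 at 30 weeks. Over the 12 libraries it met the minimum mean of 10, but its 10-week WT-TRAMP mean was under 10. Its change is therefore kept as a description and not a test.

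KO-TRAMP at 30 weeks was the comparison in which the setting decided the count. Without library 16, 8 of 10 members passed beside 18.1% of all genes, of which 6 rose (Igf1, Igfbp2, Igfbp3, Igfbp4, Igfbp6 and Igfbp7) and 2 fell (Igf1r and Irs1), beside 11.2% and 6.86%, and DESeq2 on the recovered reads called 5 members, Igf1, Igfbp2, Igfbp4, Igfbp6 and Igfbp7, beside 4.76%. Without library 17, and without library 18, 0 members passed, beside 0.0776% and 0% of all genes. With all libraries kept, the edgeR quasi-likelihood test called 0 members, beside 0.0888% of all genes. It gave 7 members an unadjusted p under 0.05, beside 15.6% of all genes. Array weights, whose fit did not converge, called 10 members beside 63.6% of all genes. The ranges over all alternatives include that fit, which gave the lower ends for Igf1, Igf1r and Irs1, among others. For the KO-TRAMP effect at 30 against 10 weeks, array weights, again without convergence, called 6 members beside 31.6%. DESeq2 called 2 there beside 2.37%, and the fit without library 16 called 2 (Igf1r and Igfbp2) beside 11.8%.

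**Figure D3:**
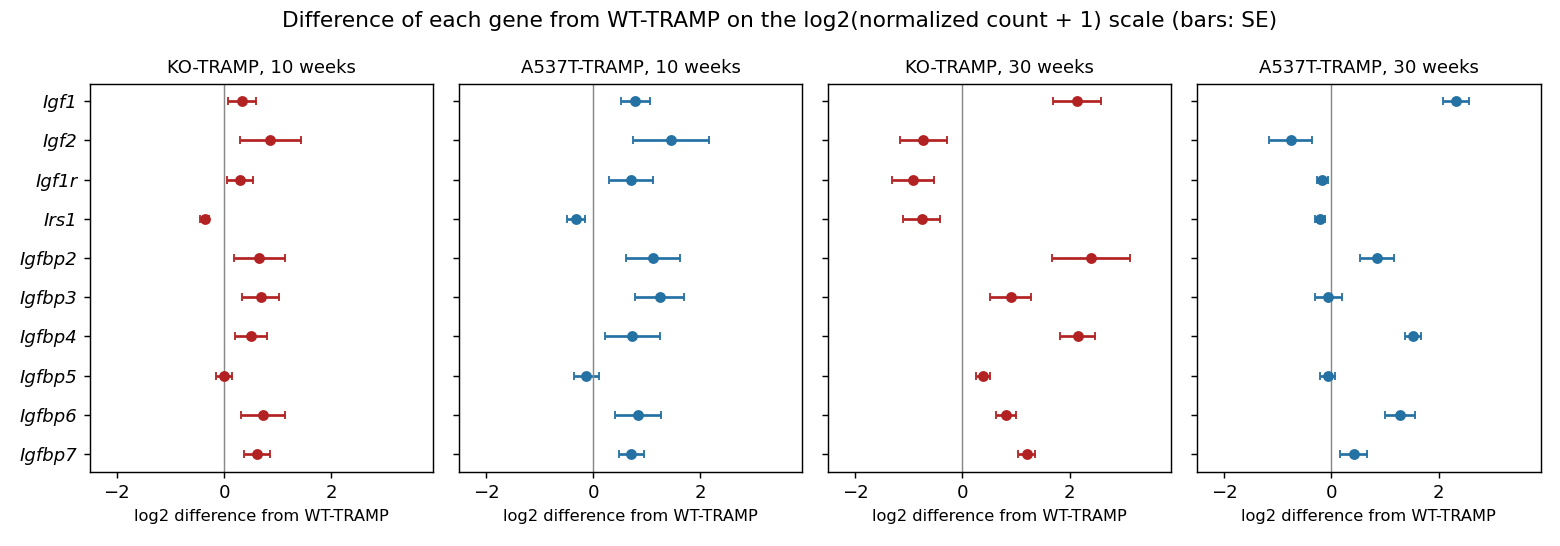
Log2 difference from WT-TRAMP (horizontal axis, log2(normalized count + 1) scale, bars are the SE of the limma fit, n = 3 per group) of each gene in the 4 comparisons. In KO-TRAMP at 30 weeks Igf1, Igfbp2 and Igfbp4 lie above 2, and in A537T-TRAMP at 30 weeks Igf1 and Igfbp4 lie highest.

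Markers of some cell types also differed from WT-TRAMP. The sum of 10 fibroblast markers was 18481 to 23101 normalized counts in KO-TRAMP at 30 weeks against 4523 to 5211 in WT-TRAMP, with 9 of 10 markers higher without overlap and none at 0. In A537T-TRAMP at 30 weeks it was 7033 to 11801 against 4303 to 4967, with 5 of 10 markers higher. In bulk tissue more cells of a type and more RNA per cell cannot be told apart. Macrophage sums were 2924 to 3702 in KO-TRAMP at 30 weeks against 1905 to 1976, and endothelial sums were 944 to 3720 against 614 to 734, each with 7 of 10 markers higher. Of 10 adipocyte markers 7 were lower there, with overlapping sums of 256 to 899 against 824 to 2037. Of 10 skeletal muscle markers 6 were higher, with overlapping sums of 566 to 1053 against 395 to 591. Basal epithelial sums were 411, 2340 and 1664 in KO-TRAMP libraries 16, 17 and 18, overlapping 393 to 423 in WT-TRAMP. Of 5 basal markers 0 were higher and 1 was lower. Of 10 luminal epithelial markers 4 were lower and 1 was higher, with overlapping sums of 34355 to 40052 against 39477 to 46667. Over all genes in KO-TRAMP at 30 weeks, 10.8% were higher and 9.48% lower without overlap. The seminal vesicle sums at 30 weeks overlapped, at 75.1 to 30706 for KO-TRAMP against 12.5 to 496832 and at 35.8 to 626736 for A537T-TRAMP against 11.7 to 456747. In A537T-TRAMP at 30 weeks the macrophage sum was 2059 to 2672 against 1807 to 1902, with 3 of 10 higher, and the adipocyte sum was 258 to 453 against 776 to 1899, with 9 of 10 lower. In A537T-TRAMP at 10 weeks the fibroblast sum was 5068 to 6788 against 2953 to 4388, with 4 of 10 higher, the endothelial sum 331 to 701 against 238 to 290, with 4 of 10 higher, the smooth muscle sum 11990 to 36487 against 4872 to 8149, with 10 of 10 higher, and the seminal vesicle sum 5025 to 1156555 against 19.3 to 49.5, with 8 of 8 higher. In KO-TRAMP at 10 weeks the smooth muscle sum was 9753 to 15965 against 5496 to 9177, with 5 of 10 higher, and the seminal vesicle sum 99.8 to 180136 against 21.0 to 54.0, with 4 of 8 higher. The luminal epithelial sum there was 145315 to 157036 against 257365 to 333160, with 1 of 10 markers lower. The adipocyte sum there was 249.9 to 294 against 132 to 232, with 1 of 10 higher and 1 lower. The higher marker was Lpl, with a mean of 238 against 132, and the lower was Adipoq, at 0 against 1.49. In each library of that comparison 4 to 6 of the 10 adipocyte markers were at 0. Over all genes in A537T-TRAMP at 30 weeks, 7.36% were higher and 6.03% lower without overlap. At 10 weeks these shares were 6.92% and 6.53% for A537T-TRAMP, and 5.77% and 6.26% for KO-TRAMP. The part of these markers in the IGF axis values was not tested.

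Igf1 and Igfbp4 were also set against the fibroblast marker sum of the same library, a scale chosen after their values were seen. In A537T-TRAMP at 30 weeks Igf1 had 57.8, 71.9 and 103 counts per 1000 fibroblast marker counts in libraries 13, 14 and 15. WT-TRAMP had 23.0 to 34.9, without overlap. High values of Igf1 and Igfbp4 in these A537T-TRAMP libraries chose the genes, so their place on this scale is a description. The share of all genes that would separate on it was not computed, and the part of fibroblasts was not tested. KO-TRAMP libraries at 30 weeks had 55.1, 20.3 and 29.5 (libraries 16, 17 and 18) against 23.8 to 36.1, an overlap. Igfbp4 overlapped in both lines, at 27.7 to 51.1 against 29.5 to 37.9 for KO-TRAMP and 34.9 to 66.8 against 29.2 to 37.6 for A537T-TRAMP.

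**Figure D4:**
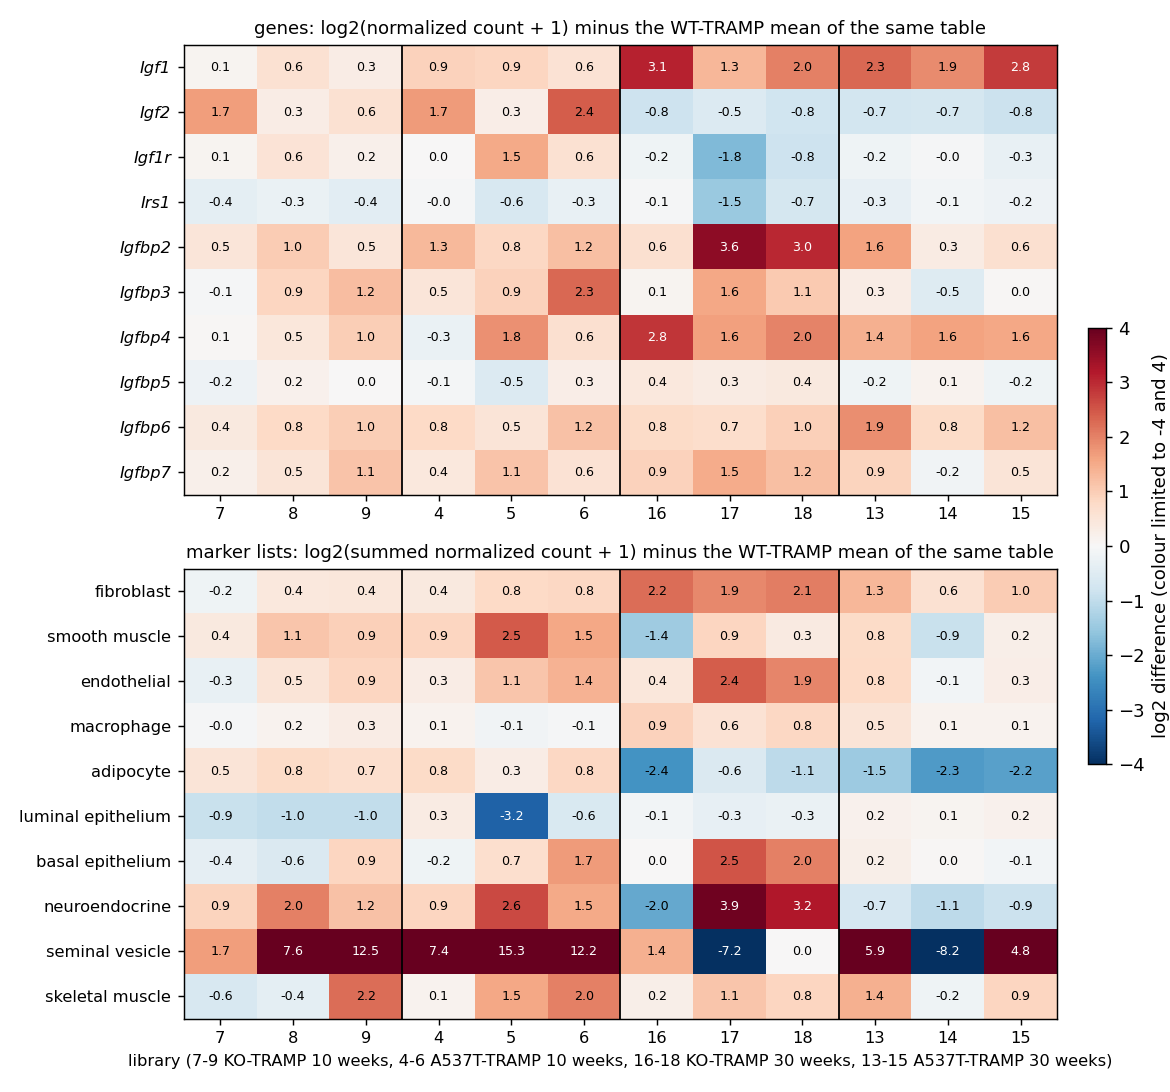
Difference of each mutant library (columns) from the WT-TRAMP mean of its table, on the log2 scale, for the 10 genes (upper map) and for the sums of 10 marker lists (lower map), with red for higher and blue for lower. Library 16 has the highest Igf1 and Igfbp4 of the KO-TRAMP libraries at 30 weeks and low neuroendocrine markers, and libraries 17 and 18 have the highest Igfbp2 and the lowest Igf1r and Irs1.

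The genes whose pattern was nearest to Igf1 over the 12 mutant libraries, each taken as a difference from WT-TRAMP in its table, were C3, Vcan and Igfbp4. Their mean absolute log2 differences from Igf1 were 0.44, 0.50 and 0.51, where the median over 10490 genes was 1.42. C3 is the central complement component and Vcan encodes versican, a matrix proteoglycan. For Igfbp4 the nearest were C3 (0.42), Svep1 (0.45) and Serpinh1 (0.48), where the median was 1.30 and Igf1 came in place 6. Svep1 encodes a matrix adhesion protein and Serpinh1 the collagen chaperone HSP47. Those 12 libraries include A537T-TRAMP libraries 13, 14 and 15, whose Igf1 and Igfbp4 values chose the genes, so the nearness of Igfbp4 to Igf1 is in part set by that choice and the order is a description. The ratio of mean normalized counts of C3 to WT-TRAMP at 30 weeks was 4.19 for KO-TRAMP and 3.30 for A537T-TRAMP, beside 4.99 and 5.17 for Igf1.

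The wider pathway was read from 47 genes of receptors and adapters, carriers and proteases, PI3-kinase, AKT and mTOR signalling, the growth hormone arm and the Igf2 locus. In KO-TRAMP at 10 weeks 38 were tested and 0 passed in limma in either direction, beside 0.0129% of all genes. Their median log2 difference was 0.08, and 6 had an unadjusted p under 0.05, beside 6.64% of all genes. In A537T-TRAMP at 10 weeks 39 were tested and 0 passed, beside 0.00648% of all genes. Their median was 0.21, and 8 had such a p, beside 7.89% of all genes. In KO-TRAMP at 30 weeks 42 were tested and 0 passed, beside 0.213% of all genes. Their median was -0.09, and 8 had such a p, beside 13.5% of all genes. Those 8 hold Irs4, which met the minimum mean only through WT-TRAMP, so its p is not read as a test. H19, Igf2bp1, Igf2bp3, Igfbp1 and Igfbpl1 fell under the minimum count in every comparison. Of the 18 genes of PI3-kinase, AKT and mTOR signalling, 13 had a negative difference at 30 weeks for KO-TRAMP and 11 for A537T-TRAMP, with medians of -0.15 and -0.05, beside 49.1% and 50% negative among all genes tested. At 10 weeks 10 of the 18 were positive for KO-TRAMP and 11 for A537T-TRAMP, with medians of 0.01 and 0.08. The median of the list in A537T-TRAMP at 30 weeks was -0.03 over 39 genes.

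The genes of smallest p in the wider list were adapters and regulators. Grb14, an adapter that inhibits insulin receptor signalling, had 79.1, 97.0 and 45.0 normalized counts in KO-TRAMP at 10 weeks against 17.5, 37.5 and 19.8, a log2 difference of 1.54 ± 0.40 (adjusted p = 0.695, limma). In A537T-TRAMP at 10 weeks it had 60.2, 95.0 and 72.2 against 15.3, 33.4 and 17.2, a difference of 1.80 ± 0.37 (adjusted p = 0.6, limma). Grb10, a related adapter, had a difference of 1.11 ± 0.27 in KO-TRAMP at 10 weeks (adjusted p = 0.659, limma), and Stat5a, a transcription factor of growth hormone and prolactin signalling, 1.03 ± 0.25 in A537T-TRAMP at 10 weeks (adjusted p = 0.6, limma).

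At 30 weeks Irs4, an adapter of the same family as Irs1, had 67.1, 77.7 and 50.2 normalized counts in WT-TRAMP and 4.12, 0 and 0 in KO-TRAMP. Irs4 met the minimum mean only through WT-TRAMP, so no test is given and its values are a description. Pappa2, a protease that cleaves IGF binding proteins, had 72.0, 39.4 and 61.6 in KO-TRAMP against 257, 106 and 287, a difference of -1.81 ± 0.45 (adjusted p = 0.282, limma). Without library 16 it was -1.99 with an adjusted p of 0.0455 (range over all alternatives 0.000449 to 0.749). The genes with the largest differences of the list in A537T-TRAMP at 30 weeks were Stc2, an inhibitor of the PAPP-A proteases, at 0.67 ± 0.72, and Htra1, a secreted protease, at 0.63 ± 0.22. For the KO-TRAMP effect at 30 against 10 weeks Stat5b, a relative of Stat5a, had a difference of -0.85 ± 0.19 with an adjusted p of 0.212 in limma and of 0.0112 without library 16 (range over all alternatives 0.000705 to 0.493).

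The RefSeq table held 14 promoter windows for the 10 members. Of these 14 windows, 2 held a TATA box (TATAAA), 3 a CCAAT box (CCAAT), 6 a GC box (GGGCGG) and 2 an E box (CACGTG), counting both strands. They belonged to 2, 3, 5 and 2 members. Of all 32851 mouse windows of that length, 13.6%, 37.4%, 35.7% and 7.15% held these letters.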

How the data were processed

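RNA of 18 libraries was measured by Illumina TruSeq sequencing of total RNA of ventral and lateral prostate lobes. Per the submitters' processing notes, the authors trimmed reads with Trim Galore 0.4.1 and cutadapt 1.18, aligned them with STAR 2.7.3a, quantified genes with Salmon by strand and scaled them with DESeq2 1.26 on GRCm38. The deposited values are a signal in normalized counts, read estimates divided by size factors within each of 4 tables. Deposited tables of the authors' own comparisons, with fold changes and p-values, were not used. Column headers carry only library numbers, and the 3 libraries present in both tables of an age were taken as WT-TRAMP. Values were whole multiples of a step, taken as 1 read, for 100% of entries in every library, within 0.001 of a step. These recovered reads went into edgeR 4.0.16 and DESeq2 1.42.0 as alternatives. A WT-TRAMP library had the same recovered reads in both tables of its age for only 30.9% to 37.6% of detected genes. The recovered reads are thus rounded estimates that depend on the table, and not exact reads of a library.

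Within its table, each line was set against WT-TRAMP by limma 3.58.1 with a mean-variance trend (R 4.3.3), using log2 values of normalized counts plus 1 and the genes whose mean was at least 10 normalized counts, two-sided, with Benjamini-Hochberg adjustment over all genes tested and a threshold of 0.05. The KO-TRAMP effect at 30 weeks was compared with that at 10 weeks in a fit of 12 libraries. Lengths came from GENCODE exon unions, and the 10 members kept their gene version there. Differences between lines and ages outside these contrasts were not tested, since tables were scaled separately. The limma, edgeR and DESeq2 fits of each table were also run on simulated reads with a single spread setting for all genes. That run checks the code and does not measure power or error in these data. Alternatives were pseudocounts of 0.5 and 5, no filter on low values, array weights, voom with TMM, edgeR, DESeq2 and leaving out each library. Members and lists were chosen with earlier results of these data known. The genes named are all members, the genes of the wider list past the threshold and the 2 of smallest p per comparison (of largest difference in A537T-TRAMP at 30 weeks), and the 3 genes nearest to Igf1 and to Igfbp4 among those with a mean of at least 50 in every table.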

Additional observations from a re-analysis of the deposited data

Results flagged for a closer look

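Igf2 was singled out because each mutant library lay above the WT-TRAMP mean at 10 weeks and below it at 30 weeks, in both lines. In KO-TRAMP its log2 difference from WT-TRAMP was 0.86 at 10 weeks and -0.73 at 30 weeks, a change of -1.59. In A537T-TRAMP it was 1.46 and -0.76, a change of -2.22. Neither change is given a test. The 10-week WT-TRAMP mean of Igf2 was under the minimum, although Igf2 met it over the 12 libraries of the KO-TRAMP fit of both ages. The 30-week A537T-TRAMP contrast was used to choose the genes. Both lines share their WT-TRAMP libraries at each age, Igf2 had under 50 normalized counts in every library, and its reads are uncertain beside the readthrough gene.

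Igf1r in KO-TRAMP met the same description, with each KO-TRAMP library above the WT-TRAMP mean at 10 weeks and below it at 30 weeks. Its log2 differences were 0.29 and -0.92, a change of -1.21 with an adjusted p of 0.348 in limma. Without library 16 the change was -1.59 with an adjusted p of 0.033 (range over all alternatives 0.00769 to 0.565).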

How the results depend on the processing

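The number of members called was 0 at 10 weeks under each alternative, beside at most 0.537% (KO-TRAMP) and 0.959% (A537T-TRAMP) of all genes. In KO-TRAMP at 30 weeks it was 10 with array weights, 5 with DESeq2 and 0 to 8 when a library was left out, and 8 only without library 16. Array weights did not converge at 30 weeks or in the fit of both ages, and called 10748 of 16900 genes in KO-TRAMP at 30 weeks. For the KO-TRAMP effect at 30 against 10 weeks it was 6 with array weights, 2 with DESeq2 and 0 to 2 when a library was left out. The median of the members in A537T-TRAMP at 30 weeks lay between 0.18 and 0.22 under the other settings and between 0.08 and 0.44 when a library was left out. Over all genes, the counts called for KO-TRAMP at 30 weeks were 36 in limma, 805 with DESeq2, 15 with edgeR, 4 with voom and 3064 without library 16, and for A537T-TRAMP at 10 weeks 1 and 148 in limma and DESeq2.

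For the wider list, whose alternatives were chosen after seeing the data, DESeq2 called 2 genes in A537T-TRAMP at 10 weeks, beside 0.959% of all genes. In KO-TRAMP at 30 weeks DESeq2 called 4 (beside 4.76% of all genes), array weights 28 (63.6%), a pseudocount of 5 called 1 (0.254%), and leaving out a library gave 0 to 16 (18.1% without library 16). For the KO-TRAMP effect at 30 against 10 weeks DESeq2 called 5 (2.37%), array weights 15 (31.6%), and leaving out a library gave 0 to 13 (11.8% without library 16). The cause was not tested.

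Of 578 member values in the tested comparisons, 14 changed sign, all of them small. Igfbp5 at 10 weeks was -0.0056 with array weights and -0.10 to 0.13 when a library was left out in KO-TRAMP, and 0.14 and -0.32 to 0.088 in A537T-TRAMP. For the KO-TRAMP effect at 30 against 10 weeks Igfbp6 was -0.018 with voom and -0.21 to 0.56 when a library was left out, and Igfbp3 was -0.15 to 0.62.

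No paired analysis was possible because the columns carry only a library number and no replicate number of the labels. At 10 weeks Igf2 fell under the minimum count when library 7 (KO-TRAMP) or library 6 (A537T-TRAMP) was left out. With 3 mice per group the calls rest on the spread between mice, and counting error weighs most on Igf2.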
